A study of Mus musculus with 4 samples.

Results

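F-box protein genes other than MAFbx were examined in mouse hearts loaded with pressure. The rule took every gene with a probe set of 1 symbol whose symbol begins with Fbxo, Fbxl or Fbxw and a number, and left out Fbxo32 (MAFbx itself, also called atrogin-1), Fbxo40, Fbxo30, Fbxo31 and Fbxw11. It found 66 genes among 19938 on the array, 32 with an Fbxo symbol, 18 with an Fbxl symbol and 16 with an Fbxw symbol. One of the 66, Fbxl12os, is by its name a transcript from the opposite strand of Fbxl12 and not an F-box protein gene.

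Hearts came from mice 1 week after TAC (transverse aortic constriction), in which the aorta is tied narrower so that the left ventricle pumps against a higher load. One array held RNA from a wild type heart and 3 arrays held RNA from MAFbx knockout hearts, and every heart had been through TAC, so no unloaded heart was compared. The labels give no strain, age, sex or knockout allele, and do not say whether the numbered hearts are separate animals, so p-values measure the spread between these samples only. Signals are the authors' log2 values, where a difference of 1 is 2-fold.

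An F-box protein is the interchangeable part of an SCF ubiquitin ligase. Its F-box binds Skp1, which sits on the scaffold Cul1 with the RING protein Rbx1, and the rest of the protein holds the substrate that is to receive ubiquitin. Symbols record that second part, which is a WD40 repeat domain in Fbxw proteins, leucine-rich repeats in Fbxl proteins and any other fold in Fbxo proteins. In heart and skeletal muscle the family is best known for MAFbx and its role in muscle wasting.

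The arrays differed beyond the F-box genes, in part with genotype and in part across it. Fbxo32 gave 7.54 in the wild type heart against 5.65, 5.61 and 5.56 in the knockout hearts (log2 difference -1.93, SE 0.17, limma adjusted p = 0.0575). Xist was low in wild type 1 (4.13) and knockout 3 (3.20) and high in knockouts 1 (9.18) and 2 (9.52), and the Y-linked gene Eif2s3y ran the other way, so wild type 1 and knockout 3 share a sex-linked pattern and the difference between knockout 3 and wild type 1 is given beside the results. Of the cell type lists, the mean level over 8 cardiomyocyte markers lay between 13.03 and 13.16 on all 4 arrays, as the heart label has it. Of these 8, 1 (Actc1) was lower and 2 (Myh6 and Ryr2) higher in every knockout heart. The mean over 8 macrophage markers was 7.98 in wild type 1 and 6.77, 6.83 and 7.29 in knockouts 1 to 3, with 7 of the 8 lower in every knockout heart. The mean over 4 smooth muscle markers was 8.63 against 7.98, 8.49 and 8.13, with 3 of the 4 lower in every knockout heart. That over 8 fibroblast markers was 10.15 against 9.42, 9.86 and 10.68, so knockout 3 was above wild type 1. Its members went different ways, with 1 of the 8 (Pdgfra) lower and 2 (Dcn and Lum) higher in every knockout heart. The mean over 6 endothelial markers was 8.72 against 8.95, 8.885 and 9.04, with 2 of the 6 higher and 0 lower in every knockout heart. In whole heart RNA, fewer cells of a type and less RNA per cell cannot be told apart. The part of these differences in the values below was not tested, unless a value says otherwise.

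No F-box gene passed the test between genotypes. Of the 66 genes 53 lay above the filter on dim probe sets (mean of the 4 arrays at or above 4.10), and 0 of these were lower and 0 higher in the knockout hearts at a limma adjusted p under 0.05, where over all 16708 genes tested 0.00599% were lower and 0% higher. The smallest adjusted p was 0.783, for Fbxl16. At an unadjusted p under 0.05 there were 1 lower and 0 higher F-box genes, against 3.87% lower and 1.72% higher over all genes, which is a share near the background. The differences ran from -0.57 for Fbxo5 to 0.45 for Fbxo44, and 0 of the 53 reached 1.5-fold, a size that 4.36% of all genes tested reached.

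The 95% confidence intervals, from limma's moderated variance, set a limit on what could have been missed. For 52 of the 53 genes the interval lay within 2-fold in both directions. The exception was Fbxo5, whose interval ran from -1.56 to 0.43. Standard errors lay between 0.17 and 0.42 with a median of 0.19, so a missed threshold is no evidence of equal levels. With 1 wild type array, each gene's own spread comes from the knockout arrays and is taken to hold for both genotypes. Limma's moderation draws it towards a value fitted over all genes tested, with 2 residual and 5.05 prior degrees of freedom. Without moderation the SE was 0.3755 for Fbxl15 and 0.023 for Fbxo28, in place of 0.26 and 0.17. The count of 52 therefore holds for the moderated intervals only.

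**Figure D1:**
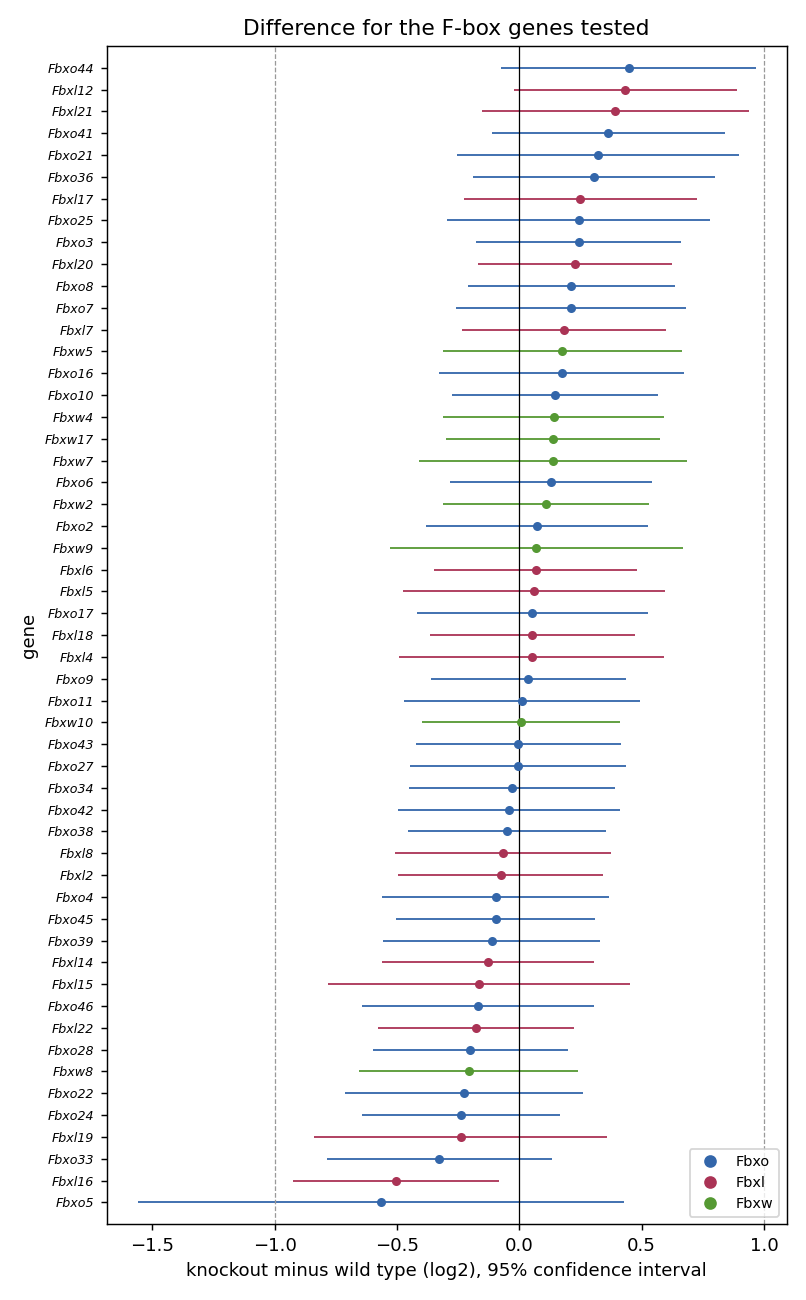
Knockout minus wild type difference (log2) for the 53 F-box genes tested, 3 knockout arrays against 1 wild type array, as points with 95% confidence intervals from limma. Colours mark the Fbxo, Fbxl and Fbxw symbols and dashed lines mark 2-fold. Points run from -0.57 (Fbxo5) to 0.45 (Fbxo44), and the interval of Fbxo5 alone crosses a dashed line.

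As a family the genes centred close to the rest of the array. The median difference was 0.05 over the 53 F-box genes and 0.003 over all genes tested, and the median size of a difference, whatever its sign, was 0.15 and 0.14. All 3 knockout values were under the wild type value for 9 F-box genes (17.0%) and over it for 17 (32.1%), against 24.2% under and 24.2% over among all genes tested. In knockout 3 against wild type 1 the median over the F-box genes was 0.01. With only 2 knockout arrays more genes fall on one side. Without knockout 1 there were 14 F-box genes under the wild type value (26.4%, against 31.7% of all genes tested) and 20 over it (37.7%, against 30.1%). Without knockout 2 there were 11 under (20.8%, against 31.3%) and 20 over (37.7%, against 31.5%), and without knockout 3 there were 15 under (28.3%, against 34.9%) and 25 over (47.2%, against 35.3%).

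By symbol the classes had like medians, 0.01 for the 29 Fbxo genes tested, 0.05 for the 16 Fbxl genes and 0.12 for the 8 Fbxw genes. Of the Fbxw genes 7 differed upwards and 1 downwards, by at most 0.21 in size, where 50.7% of all genes tested differed upwards. In 5 of these 8 (Fbxw2, Fbxw4, Fbxw5, Fbxw7 and Fbxw17), knockouts 1 and 2 read above both wild type 1 and knockout 3, as in 21.6% of all genes tested. Nothing is read from counts over 8 genes.

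**Figure D2:**
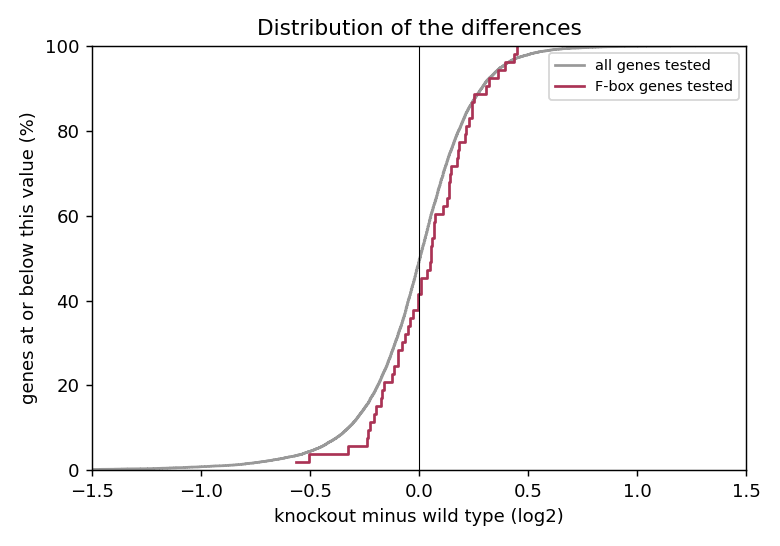
Cumulative share of genes (%) by knockout minus wild type difference (log2), for the 53 F-box genes tested and for all 16708 genes tested. The F-box curve runs beside the curve of all genes, with medians of 0.05 and 0.003, and ends at -0.57 and 0.45.

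The F-box gene with the smallest p, Fbxl16, read lower in every knockout heart. Fbxl16 encodes a leucine-rich repeat F-box protein best known from nervous tissue. It read 6.22 in wild type 1 and 5.83, 5.67 and 5.65 in knockouts 1 to 3. All 3 knockout values were under the wild type value, as in 24.2% of all genes tested. The knockout arrays lay close together (5.72 ± 0.10, SD, n = 3). The difference was -0.50 (SE 0.18, 95% interval -0.92 to -0.08, limma adjusted p = 0.783), a level 1.42-fold lower. It was -0.57 in knockout 3 against wild type 1, and between -0.56 and -0.47 when any knockout array was left out.

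Among the F-box genes higher in every knockout heart, Fbxl12 had the smallest p. Fbxl12 encodes an F-box protein that targets inhibitors of cyclin-dependent kinases. It read 6.05 in wild type 1 and 6.48, 6.64 and 6.33 in the knockout hearts (6.48 ± 0.16, SD, n = 3). The difference was 0.43 (SE 0.19, 95% interval -0.02 to 0.89, limma adjusted p = 0.90), and 0.28 in knockout 3 against wild type 1. The opposite-strand transcript Fbxl12os was below the filter, at 3.91 in wild type 1 and 3.47, 3.71 and 3.55 in the knockout hearts.

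The starts of these 2 genes are shown because they had the smallest p in each direction. Both stretches are from RefSeq on GRCm38.p6, 250 bases before the start to 30 after it, read 5′ to 3′ on the strand of the gene (chr17:25808211-25808490, plus strand for Fbxl16 and chr9:20644738-20645017, minus strand for the first of 2 starts of Fbxl12). Capitals mark a CCAAT match.
Fbxl16: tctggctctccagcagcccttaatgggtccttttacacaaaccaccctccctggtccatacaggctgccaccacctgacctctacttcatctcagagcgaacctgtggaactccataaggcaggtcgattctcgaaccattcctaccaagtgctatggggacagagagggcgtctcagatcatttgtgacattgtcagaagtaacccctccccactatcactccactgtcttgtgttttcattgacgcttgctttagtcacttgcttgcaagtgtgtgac
Fbxl12: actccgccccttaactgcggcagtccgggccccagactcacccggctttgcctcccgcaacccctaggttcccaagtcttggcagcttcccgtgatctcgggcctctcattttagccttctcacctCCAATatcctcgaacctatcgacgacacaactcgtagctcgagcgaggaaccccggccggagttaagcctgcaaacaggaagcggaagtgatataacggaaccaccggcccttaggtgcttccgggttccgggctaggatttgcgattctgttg
The windows of 300 bases (50 after the start) were searched on both strands for CCAAT, for the cell cycle element CHR (TTTGAA), for the E-box CACGTG, for the FoxO core TGTTTAC and for the E2F letters TTTCCCGC. Fbxl16 held none of the 5. Fbxl12 held 1 CCAAT, from 124 to 120 bases before the start. Of the 53 F-box genes tested 41 were in the promoter table, with 59 starts.

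FoxO factors are known to drive Fbxo32 in wasting muscle, and the FoxO core was in 0 of the 59 F-box windows and in 3.65% of all 32851 windows. The E2F letters were in 0 of 59 and in 1.07%. CCAAT was in 17 of 59 (28.8%) against 37.4% of all, CHR in 8 (13.6%) against 17.9%, and the E-box in 5 (8.47%) against 7.15%. A window without a match says only that these letters are not in it.

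The other genes lower in every knockout heart differed by less. Fbxo33, whose protein targets the Y-box factor YB-1, read 6.50 in wild type 1 and 6.04, 6.13 and 6.35 in the knockout hearts, a difference of -0.33 (SE 0.19, limma adjusted p = 0.935). Fbxo24 read 5.04 against 4.84, 4.83 and 4.74, a difference of -0.24. Both genes were named because every knockout value was under the wild type value, and in both the difference was under 2 standard errors.

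Fbxo28, which encodes an F-box protein tied to Myc function, read 7.16 in wild type 1 and 6.98, 6.96 and 6.94 in the knockout hearts. The difference of -0.20 (SE 0.17, limma adjusted p = 0.964) came with an SD of 0.02 over the knockout arrays. Fbxo22, whose protein promotes loss of heme-bound Bach1, the repressor of the heme oxygenase gene, read 8.39 against 8.10, 8.38 and 8.01, and knockout 2 lay at the wild type level. Fbxw8, the F-box partner of Cul7, read 8.23 against 8.17, 8.02 and 7.88, a difference of -0.21 (SE 0.19).

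With Fbxl12, 5 further genes made up the 6 of smallest p among those higher in every knockout heart. Fbxo6, Fbxo7 and Fbxo21, named for other reasons, were also higher in every one and are given below. Fbxo44 read 6.18 in wild type 1 and 6.77, 6.75 and 6.36 in the knockout hearts, a difference of 0.45 (SE 0.22, 95% interval -0.07 to 0.97, limma adjusted p = 0.932). Knockout 3 was nearer to wild type 1 (0.18) than to the other knockout hearts. Fbxo41, which encodes a neuronal F-box protein, read 4.90 against 5.10, 5.23 and 5.46, with knockout 3 highest (difference 0.36, SE 0.20). Fbxo36 read 6.87 in wild type 1 against 7.03, 7.41 and 7.09, and Fbxo3 8.37 against 8.54, 8.72 and 8.58, where the knockout values lay close together (difference 0.24, SE 0.18).

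The fifth was Fbxl21, which encodes an F-box protein that acts on the cryptochromes of the circadian clock. It read 4.67 in wild type 1 and 5.36, 4.92 and 4.91 in the knockout hearts, a difference of 0.39 (SE 0.23, limma adjusted p = 0.935). Without knockout 1, the highest array, the difference was 0.245.

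**Figure D3:**
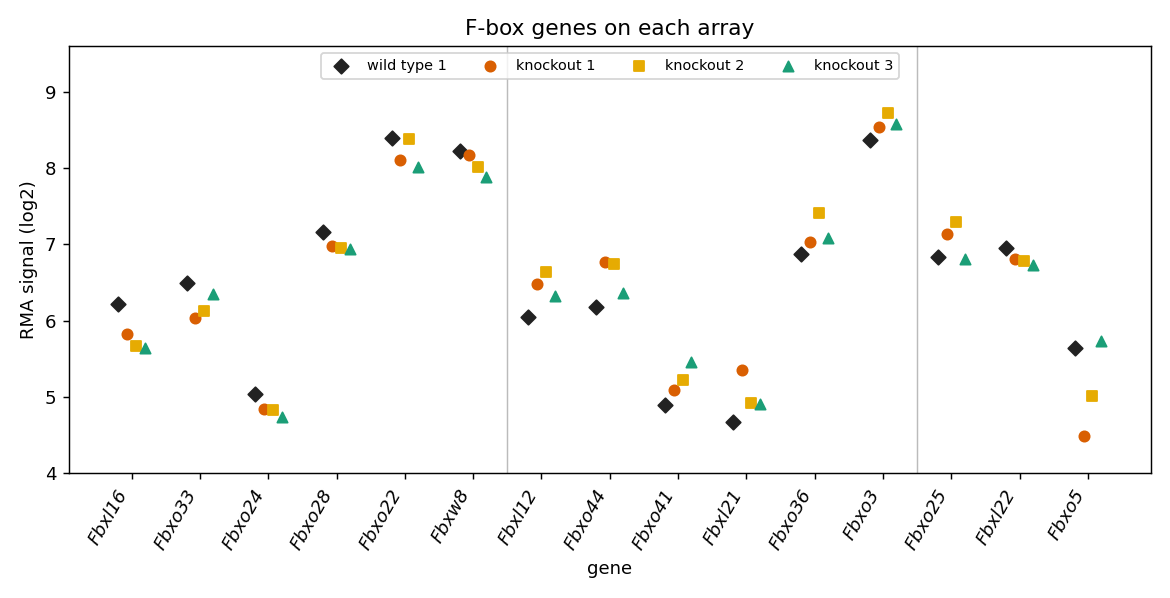
RMA signal (log2) of 15 F-box genes on each of the 4 arrays (1 wild type, 3 knockout), with 1 marker per array. The left block holds 6 genes lower in every knockout heart, the middle block 6 genes higher in every one, and the right block Fbxo25, Fbxl22 and Fbxo5. In Fbxo5 knockout 3 (5.74) reads with wild type 1 (5.65) and apart from knockouts 1 and 2 (4.49 and 5.02).

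Neither Fbxo25, taken as a relative of MAFbx, nor Fbxl22, taken as a muscle gene, passed the test. Fbxo25, whose protein is the closest relative of MAFbx, read 6.84 in wild type 1 and 7.14, 7.30 and 6.81 in the knockout hearts. Knockouts 1 and 2 were above wild type 1 and knockout 3 was level with it, and the difference was 0.24 (SE 0.23, 95% interval -0.29 to 0.78, limma adjusted p = 0.964). The interval leaves out a 2-fold difference in either direction, but only with limma's moderated variance. Without moderation the SE of Fbxo25 was 0.29, on 2 residual degrees of freedom. Fbxl22, which encodes a sarcomere-associated F-box protein of heart and skeletal muscle, read 6.95 against 6.81, 6.78 and 6.73, a difference of -0.18 (SE 0.17, 95% interval -0.58 to 0.22, limma adjusted p = 0.968).

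The 5 genes of the sugar-recognizing branch lie in neighbouring sets. Their proteins are related, and Fbxo2, Fbxo6, Fbxo17 and Fbxo27 are known to recognize glycoproteins. Fbxo6, Fbxo44 and Fbxo2 are consecutive protein-coding genes of chromosome 4, and Fbxo27 and Fbxo17 are consecutive on chromosome 7, by the order in GRCm38.p6. Fbxo44 and Fbxo2 point away from each other, with 574 bases between their nearest starts.

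The members of each set are given side by side, with no test between them. Beside the 0.45 of Fbxo44, Fbxo2 read 5.04 in wild type 1 and 4.98, 5.08 and 5.28 in the knockout hearts (difference 0.07, SE 0.19). Fbxo6 read 7.92 against 8.13, 7.97 and 8.05 (0.13, SE 0.17). The knockout arrays highest for Fbxo44 were knockouts 1 and 2, and the highest for Fbxo2 was knockout 3. Fbxo17 read 5.82 against 6.0, 5.67 and 5.95, and Fbxo27 5.69 against 5.59, 5.63 and 5.84, with wild type 1 inside the knockout range in both. The difference of Fbxo27 was -0.0033 and changed sign when the arrays were centred (0.035) or quantile normalized again (0.016). Of the 5 genes 2 (Fbxo44 and Fbxo6) were higher in every knockout heart and 0 lower, where the share of all genes tested was 24.2% each way, so the count says nothing particular about the set.

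Among F-box genes of the cell cycle and growth, Fbxo5 varied most between knockout hearts of all 53 genes. Fbxo5 encodes Emi1, the inhibitor that holds the anaphase-promoting complex off until mitosis. It read 5.65 in wild type 1 and 4.49, 5.02 and 5.74 in knockouts 1 to 3 (5.08 ± 0.63, SD, n = 3). Wild type 1 lay inside the knockout range, below knockout 3 and above the other two. The difference was -0.57 (SE 0.42, limma adjusted p = 0.954), but 0.09 in knockout 3 against wild type 1 and -0.895 without knockout 3.

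The mean of the 6 proliferation markers tested had the same order over the arrays as Fbxo5. It was 6.96 in wild type 1, 5.49 in knockout 1, 5.86 in knockout 2 and 7.08 in knockout 3. All 6 had knockouts 1 and 2 below wild type 1 and knockout 3, as had 9 of the 53 F-box genes and 21.5% of all genes tested. The seventh marker, Bub1, was below the filter at 4.33, 3.09, 3.19 and 4.42. The part of dividing cells, and of the sex-linked pattern, in the Fbxo5 values was not tested.

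The start of Fbxo5 is shown because it carries matches for CCAAT and CHR, letters often found together before mitotic genes. The pair is not particular to Fbxo5. Both were also in a window of Fbxo9 and in both windows of Fbxo17, which made 4 of the 59 F-box windows (6.78%) against 6.95% of all windows. The stretch is from RefSeq on GRCm38.p6, chr10:5805436-5805715, minus strand, 250 bases before the start to 30 after, 5′ to 3′. Capitals mark the matches, all on the opposite strand, where CCAAT reads ATTGG and TTTGAA reads TTCAAA.
Fbxo5: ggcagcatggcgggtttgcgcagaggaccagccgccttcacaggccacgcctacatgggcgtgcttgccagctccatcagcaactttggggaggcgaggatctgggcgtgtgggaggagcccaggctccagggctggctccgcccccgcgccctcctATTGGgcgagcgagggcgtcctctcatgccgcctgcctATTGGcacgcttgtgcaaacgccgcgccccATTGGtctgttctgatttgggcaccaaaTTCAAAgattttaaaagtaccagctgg
The 3 ATTGG matches begin 93, 55 and 25 bases before the start, and TTCAAA covers bases 4 to 9 after it.

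Skp2 and Ccnf, F-box genes known under other symbols, were read beside Fbxo5, with Cks1b and Cks2 from the list of SCF genes given below. Skp2, the ligase for p27, read 6.34 in wild type 1 and 5.64, 5.47 and 6.15 in the knockout hearts (difference -0.59, SE 0.27, limma adjusted p = 0.905). Ccnf, cyclin F, read 5.15 against 4.81, 4.87 and 5.39, and was 0.24 higher in knockout 3 than in wild type 1. Cks1b, the cofactor of Skp2, read 7.40 against 6.31, 6.61 and 6.99, and Cks2 6.35 against 4.71, 4.71 and 5.89, with differences of -0.76 and -1.25 (limma adjusted p = 0.772 and 0.802). In all 4 genes knockout 3 was the knockout heart nearest to wild type 1. Over all genes tested, too, wild type 1 correlated most with knockout 3 (0.986, against 0.975 for knockout 1 and 0.979 for knockout 2). Cks1b and Cks2 were named after their values were seen, so nothing is read from the count over these 4 genes.

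**Figure D4:**
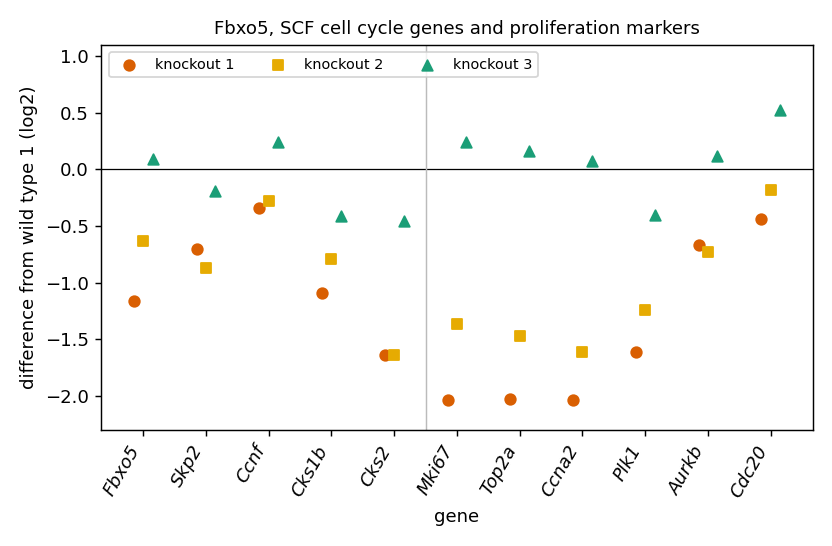
Difference of each knockout array from wild type 1 (log2) for Fbxo5, Skp2, Ccnf, Cks1b and Cks2 (left) and for 6 proliferation markers (right), 1 point per knockout array. Knockouts 1 and 2 lie below 0 for every gene drawn, and knockout 3 lies nearer to 0 or above it, at 0.09 for Fbxo5.

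Of the other growth genes none passed the test. Fbxw7, whose protein targets cyclin E, Myc and Notch, read 7.43 in wild type 1 and 7.63, 7.79 and 7.28 in the knockout hearts, so wild type 1 lay inside the knockout range. The difference was 0.14 (SE 0.23), and with the mean of its probe sets, of which the dimmer read 4.52, 4.61, 4.10 and 4.21, it was -0.04. Fbxo4, known to act on cyclin D1, read 7.12 against 6.86, 7.19 and 7.02. The list of this group holds Fbxw7, Fbxo5, Fbxo43, Fbxo4, Fbxw8, Fbxw5, Fbxo28 and Fbxl7, and leaves out Fbxl12. Of these 8, 2 were lower and 2 higher in every knockout heart, a share near the 24.2% each way of all genes tested.

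The 3 F-box genes of mitochondria and iron each had knockouts 1 and 2 above wild type 1 and knockout 3. So had 17 of the 53 F-box genes and 21.6% of all genes tested, and nothing is read from a count over 3 genes. Fbxo7, which works with the Parkin pathway of mitochondrial clearance, read 7.31 in wild type 1 and 7.60, 7.64 and 7.32 in the knockout hearts (difference 0.21, SE 0.20). Fbxl4, a mitochondrial F-box protein gene, read 5.40 against 5.49, 5.68 and 5.18. Fbxl5, whose protein senses iron and removes the iron regulatory protein IRP2, read 6.71 against 6.86, 6.96 and 6.49. For Fbxl4 and Fbxl5 knockout 3 was 0.22 lower than wild type 1, so their small differences over all arrays (0.05 and 0.06) joined opposite readings.

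Over the family, knockouts 1 and 2 both read above wild type 1 and knockout 3 in 17 of the 53 genes, against 21.6% of all genes tested. Fbxo21 was the one of these with the widest knockout range, at 7.93 in wild type 1 and 8.51, 8.30 and 7.94 in the knockout hearts. Knockout 3 differed from wild type 1 by 0.01 in it, while the difference over all arrays was 0.32 (SE 0.24, limma adjusted p = 0.954). Another 3 genes were named for their range over the knockout hearts, and in each knockout 2 was lowest. Fbxl19, whose protein acts on the IL-33 receptor, read 6.62 against 6.49, 6.03 and 6.62. Fbxl15, a regulator of the ligase Smurf1, read 7.05 against 7.0, 6.52 and 7.14. Fbxw9 read 5.53 against 5.71, 5.25 and 5.84.

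Fbxo3 and Fbxl2 form a known pair, in which the Fbxo3 protein targets Fbxl2. Beside the 0.24 of Fbxo3, Fbxl2 read 5.71 in wild type 1 and 5.53, 5.68 and 5.69 in the knockout hearts, a difference of -0.08 (SE 0.18, limma adjusted p = 0.997). Neither passed the test.

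The 24 tested genes outside the naming rule had differences from -0.17 for Fbxo46 to 0.25 for Fbxl17, and their adjusted p was at least 0.954 with limma. Of these 24, 1 (Fbxo45, difference -0.10) was lower and 8 higher in every knockout heart, where 24.2% of all genes tested were so each way. The naming rule had already taken the 6 genes of smallest p on each side and some others, so these counts are of what it left. Examples follow, chosen after their values were seen. Fbxl20, known from the synapse, read 7.38 in wild type 1 and 7.59, 7.63 and 7.60 in the knockout hearts, a difference of 0.23 (SE 0.17). Fbxl17, which checks the pairing of BTB domain proteins, read 8.83 against 9.16, 9.21 and 8.87, where knockout 3 was near wild type 1. Fbxo9 read 8.39 against 8.45, 8.40 and 8.43, close together on all 4 arrays. Fbxo11, whose protein targets Bcl6, read 8.48 against 8.28, 8.65 and 8.54, with wild type 1 inside the knockout range.

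Of the 13 genes below the filter, 8 are known from oocytes. Fbxw13, Fbxw15, Fbxw18, Fbxw20, Fbxw21, Fbxw22, Fbxw24 and Fbxw26 belong to a cluster of closely related Fbxw genes on chromosome 9, and the other genes were Fbxo15, Fbxo47, Fbxo48, Fbxl13 and Fbxl12os. Their means over the 4 arrays lay between 2.31 and 3.74. Copies this alike can share probes, so the single readings are uncertain. Just above the filter stood Fbxo43 (4.46), Fbxo39 (4.48) and Fbxo16 (4.56), and just below it Fbxo47 (3.74). Another 7 Fbxw genes of RefSeq had no probe set of 1 symbol and were not analysed here.

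The ligase parts that F-box proteins share did not pass the test either. Skp1 read 9.15 in wild type 1 and 9.17, 9.34 and 9.02 in the knockout hearts, and Cul1 8.93 against 8.95, 9.13 and 8.92. Rbx1 read 10.06 against 10.01, 9.96 and 9.66, a difference of -0.18 (SE 0.20). The list of 28 SCF genes tested is wider than these shared parts and also holds Cks1b and Cks2. Its median was -0.05, with 0 past the limma adjusted threshold. At an unadjusted p under 0.05 with limma, 2 were lower (Cks1b and Cks2) and 0 higher, where 3.87% of all genes tested were lower. Without knockout 1, without knockout 2 or with the Xist level as a covariate the count of lower genes was 0. Of the 28, 7 (25%) were lower in every knockout heart, a share near the 24.2% of all genes tested, and 0 were higher, against 24.2%.

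One of those 7, chosen after its values were seen, was Cand1, which exchanges F-box proteins on Cul1, at 8.69 in wild type 1 and 8.23, 8.29 and 8.38 in the knockout hearts (difference -0.39, SE 0.17, limma adjusted p = 0.90). Of the 8 F-box proteins under other symbols 0 passed the adjusted and 0 the unadjusted threshold, with a median of 0.14. Btrc, the ligase of IkB and beta-catenin, read 7.70 against 7.84, 8.15 and 7.65.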

How the data were processed

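RNA of 4 mouse hearts (1 wild type, 3 MAFbx knockout) was measured on Affymetrix arrays. The authors deposited log2 values per probe set from RMA in Affymetrix Expression Console, per the submitters' processing notes; neither version nor build is stated there. RMA removes changes shared by most genes and compresses dim ones. A probe set's brightness also depends on its probes, so genes were not ranked by level.

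Of 35556 probe sets 21789 had 1 symbol, and the brightest was kept per gene. Genes under the 25th percentile of all probe sets (4.10) were left out, leaving 16708. These were fitted with limma 3.58.1 in R 4.3.3 (lmFit, eBayes, two-sided, Benjamini-Hochberg, threshold 0.05), with 2 residual and 5.05 prior degrees of freedom, after a test on simulated data. The number of arrays limits precision, and an exact permutation of 1 against 3 allows no p under 0.25.

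Genes named are the 6 lower and 6 higher F-box genes of smallest p whose groups do not overlap, the 5 of widest knockout range, and a set known in heart, cell cycle, clock, iron, mitochondria or sugar recognition, with Fbxo32, Skp2, Btrc, Ccnf, Skp1, Cul1, Rbx1 and Xist for context. Cks1b, Cks2, Cand1, Eif2s3y, Bub1, Fbxl12os, Fbxo45, Fbxo46, the Fbxw genes given by array pattern and the genes near or below the filter were named after their values were seen. Members, lists and tests were chosen with earlier results of these data known.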

Additional observations from a re-analysis of the deposited data

How the results depend on the processing

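No F-box gene passed the limma adjusted threshold under any alternative run (other filters, renewed quantile normalization, centring, the mean over probe sets, eBayes with trend or robust, no moderation, adjusted p under 0.1, each knockout array left out, Xist level as a covariate). A filter at the 25th percentile of probe sets with 1 symbol was added after seeing the data. Of the genes named by rule, Fbxl4, Fbxl21, Fbxo2, Fbxo5, Fbxo24, Fbxo41 and Fbxw9 lay below the filter at the median and were not tested there. Fbxo32 passed with the filter at the median (adjusted p = 0.0448), centring (0.0378), trend (0.0352) and robust (0.0185).

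The family median of 0.05 was 0.092 with centring, 0.01 with the Xist covariate and between 0.015 and 0.03 with a knockout array left out. Counts at an unadjusted p under 0.05 were 1 higher with centring, 2 lower and 1 higher with no moderation, 1 higher with the covariate, and 0 to 2 lower and 0 to 2 higher with an array left out. Genes lower in every knockout heart left numbered 11 to 15, and genes higher in every one 20 to 25, where over all genes tested 31.3% to 34.9% were lower and 30.1% to 35.3% higher. The SCF median was -0.11 with the covariate and between -0.095 and -0.015 with an array left out. SCF genes lower at an unadjusted p numbered 1 with the filter at the median, 0 with the covariate and 0 to 3 with an array left out. The median for other symbols was 0.045 with the covariate and 0.0725 to 0.1525 with an array left out, where 0 to 1 were lower at an unadjusted p.

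Of the 29 F-box genes named by rule 10 changed sign somewhere. With the covariate, where the difference is knockout 3 against wild type 1, the values were 0.09 for Fbxl15 and Fbxo5, -0.22 for Fbxl4 and Fbxl5, -0.03 for Fbxo25, 0.15 for Fbxo27, -0.15 for Fbxw7, -0.05 for Btrc, 0.24 for Ccnf, -0.13 for Skp1 and -0.01 for Cul1. With an array left out Fbxl15 lay between -0.29 and 0.02, Fbxl4 lay between -0.065 and 0.185, Fbxl5 lay between -0.035 and 0.20, Fbxo17 lay between -0.01 and 0.155, Fbxo2 lay between -0.01 and 0.14, Fbxo27 lay between -0.08 and 0.045, Fbxw9 lay between -0.05 and 0.245 and Skp1 lay between -0.055 and 0.105. Fbxo27 was 0.016 with renewed normalization and 0.035 with centring, and Fbxw7 was -0.038 with the mean over probe sets. Beyond how each alternative is built, the cause was not tested. No paired analysis was possible, because there was 1 wild type array and the labels name no pairs.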
